A study of Mus musculus with 4 samples.

Results

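The sites described here are adenosines in named mouse genes that were listed as carrying N6-methyladenosine (m6A) within the 3-mer AAC, that is, with an A immediately before the modified A. They were chosen as the rows of the 4 deposited site tables that have a gene name and the 3-mer AAC in capital letters. No level entered the choice. These were 3193 distinct positions in 2420 genes, out of 25595 positions listed in at least 1 library. The sites set beside them are the 6878 positions in 4048 named genes that carry GAC in capitals. The meaning of lower-case 3-mers is not given in the sources used here, and those rows were left out of the main comparison.

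m6A is placed co-transcriptionally on messenger RNA by a complex whose catalytic subunit is METTL3, mostly within the motif DRACH, where R is G or A and the methylated base is the A that follows it. AAC and GAC are therefore the forms of the motif's centre, and GAC is generally the more frequently methylated of them. In GLORI, unmethylated adenosine is chemically deaminated and read as G, so an adenosine still read as A is counted as methylated and the level of a site is the share of its reads with A.

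All 4 libraries came from cortex of mice of the genotype APOBEC1-YTH, a cytidine deaminase fused to an m6A-binding domain, that were 10 weeks old when tamoxifen began. The dose was 20 mg/kg at intervals of 24 hours over 5 days, and perfused cortex was collected 7 days after the last dose. The groups are astrocytes, sorted with an antibody to ACSA2, an epitope of the Atp1b2 product, and microglia, sorted with an antibody to CD11b, the Itgam product, with 2 libraries each. Genotype and treatment were the same in every library, so no untreated or transgene-free sample enters. What drives the transgene, and how many animals gave each library, is not stated in the labels. They also do not say that the libraries came from separate animals, so p-values measure only the spread between these libraries. Total RNA was used for a stranded low-input kit, although the labels enter the molecule as polyA RNA.

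The library labelled astrocyte 1 listed 1426 AAC sites in 1200 genes, astrocyte 2 listed 743 in 661 genes, microglia 1 listed 389 in 378 genes and microglia 2 listed 1068 in 926 genes. The GAC counts of the same libraries were 3118, 1465, 551 and 2553. Read coverage is not in the tables and sequencing depth is unknown, so a site that is absent may be unmethylated, under a calling threshold or unread.

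The AAC sites go against the labels of both replicate 2 libraries. Of 24 astrocyte markers, 12 had an AAC site in astrocyte 1 and 1 in astrocyte 2, with 0 in microglia 1 and 10 in microglia 2. Of 24 microglia markers, the counts were 0 in astrocyte 1 and 9 in astrocyte 2, with 7 in microglia 1 and 1 in microglia 2. Of the genes whose products were stained for the sort, Atp1b2 had no AAC site and Itgam, a microglial integrin, had 1, at 27.8% in the library labelled astrocyte 2. The libraries labelled astrocyte 2 and microglia 2 are therefore named by their labels only, and differences between cell types below are also given from the replicate 1 libraries. Within sorted bulk RNA, fewer cells of a type and less RNA per cell cannot be told apart.

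AAC sites lay in genes of several classes. By the RefSeq class of the gene symbol, which 2387 of the 2420 AAC genes matched, 89.9% of AAC positions and 93.5% of GAC positions were in protein-coding genes. Long noncoding RNA genes held 5.92% of AAC positions and 3.47% of GAC positions. Genes of small nucleolar RNAs, which guide modification of ribosomal RNA, held 14 AAC positions and 48 GAC positions. A pair of AAC sites lay in microRNA genes and both were listed in all 4 libraries, so their RefSeq hairpins are printed here, with each AAC in capitals. Mir219a-2 makes miR-219, a microRNA known from oligodendrocyte maturation. The hairpins are the RefSeq sequences placed in build GRCm38.p6, Mir219a-2 on the minus strand of chromosome 2 and Mir6240 on the plus strand of chromosome 5, while the site tables use mm39. The sites were tied to the hairpins by gene symbol alone, so whether they lie within the printed hairpins, and at which adenosine, was not determined.
Mir219a-2: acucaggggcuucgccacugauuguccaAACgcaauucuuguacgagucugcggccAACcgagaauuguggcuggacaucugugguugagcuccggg
Mir6240: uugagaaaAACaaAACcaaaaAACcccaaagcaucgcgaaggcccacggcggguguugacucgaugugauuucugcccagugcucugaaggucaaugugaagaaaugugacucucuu
The Mir219a-2 hairpin holds 2 AAC and 1 GAC, and that of Mir6240 holds 3 AAC and 2 GAC. The listed Mir219a-2 site (chromosome 2, position 29735683 in mm39, minus strand) stood at 100% in astrocyte 1 and 100% in astrocyte 2, with 83.3% in microglia 1 and 100% in microglia 2. The Mir6240 site (chromosome 5, position 114990032, plus strand) stood at 90.2%, 95.1%, 93.5% and 95.5% in the same order. Both were thus read mostly as A in every library.

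AAC was the less frequent 3-mer among sites in named genes and the more frequent one outside them. AAC made up 31.4% of named-gene sites in astrocyte 1 (95% exact binomial interval 30.0 to 32.8) and 33.7% in astrocyte 2 (31.7 to 35.7), with 41.4% in microglia 1 (38.2 to 44.6) and 29.5% in microglia 2 (28.0 to 31.0). Such intervals cover the counting of sites only. Among upper-case sites without a gene name the shares were 53.9%, 55.4%, 59.2% and 55.1% in the same order, above the named-gene share in each library.

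The high share in microglia 1 sat with its sites at a level of 100%. Among sites below 100%, AAC made up 30.4% in astrocyte 1 and 34.2% in astrocyte 2, with 31.0% in microglia 1 (26.3 to 36.0) and 28.9% in microglia 2. Among sites at 100% it made up 34.3%, 32.7%, 48.2% (44.0 to 52.3 in microglia 1) and 33.0%. Microglia 1 also had the lowest share of AAC sites in protein-coding genes, 74.6%, against 89.6% to 91.8% in the other libraries. Its share of GAC sites in such genes was the lowest too, 84.2%, against 90.9% to 94.1%. Among protein-coding sites it had 38.5% AAC, against 28.7% to 33.9% in the others. The part of gene class in that share was not tested further.

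Between the labelled cell types the AAC share was 32.5% in astrocytes and 35.4% in microglia, a difference of -2.92 percentage points with overlapping libraries (two-sided exact permutation test, p = 1, n = 2 libraries each, smallest possible p 0.33). The direction turned to 3.02 points without microglia 1 and to 2.34 points among sites below 100%. The replicate 1 libraries alone differed by -10 points, with 1 library a type and so no test.

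**Figure D1:**
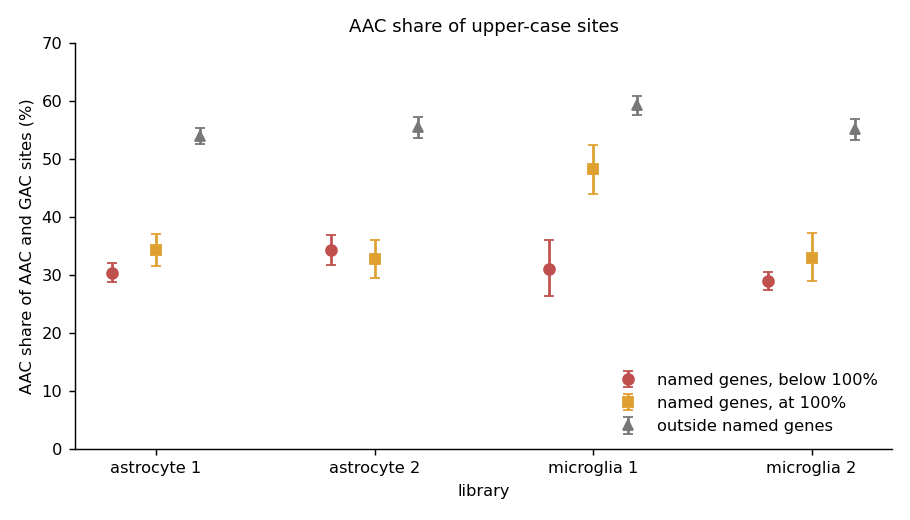
AAC sites as a percent of AAC and GAC sites (vertical axis) by library (horizontal axis), for named-gene sites below 100%, named-gene sites at 100% and sites outside named genes; bars are 95% exact binomial intervals. Below 100% the shares lie between 28.9% and 34.2%, at 100% microglia 1 stands apart at 48.2%, and outside named genes all 4 libraries lie above 53%.

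Median levels of AAC and GAC sites were equal in 3 libraries, and in microglia 1 both stood at the upper limit. The median AAC level was 66.7% in astrocyte 1 and 80% in astrocyte 2, with 100% in microglia 1 and 58.3% in microglia 2, and the median GAC level was 66.7%, 80%, 100% and 58.8%. The mean difference, AAC minus GAC, was -0.12 ± 0.25 points over libraries (SD, n = 4; two-sided exact sign-flip permutation test, p = 1). With the mean level in place of the median the difference was 2.20 points (exact sign-flip permutation p = 0.375). The mean levels were 66.5% for AAC and 66.0% for GAC in astrocyte 1, 71.9% and 72.4% in astrocyte 2, 88.6% and 80% in microglia 1, and 59.5% and 59.4% in microglia 2. Microglia 1 thus carried most of the difference in means.

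The share of sites at exactly 100% differed most between the 3-mers in microglia 1. They were 28.8% of AAC and 25.2% of GAC sites in astrocyte 1, 36.1% and 37.7% in astrocyte 2, and 16.4% and 13.9% in microglia 2. In microglia 1 they were 70.4% of AAC sites (65.6 to 74.9) and 53.5% of GAC sites (49.3 to 57.8). These intervals cover the counting of sites in that library only and do not test the 3-mers. The difference was 5.31 ± 8.03 points over libraries (n = 4, exact sign-flip permutation p = 0.25, higher in 3 of 4), and 1.45 points without microglia 1. Leaving out genes with Gm or Rik symbols gave 4.35 points. Protein-coding genes alone, a setting chosen after the data were seen, gave 3.72 points.

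Below 100% the medians were equal in 3 libraries and lower for AAC in astrocyte 1: 50.0% for AAC and 55.6% for GAC in astrocyte 1 and 57.1% for both in astrocyte 2, with 60% for both in microglia 1 and 50.0% for both in microglia 2. At the low end, AAC sites under 20% were 4.84% of AAC sites in astrocyte 1 and 2.96% in astrocyte 2, with 1.03% in microglia 1 and 4.78% in microglia 2. The GAC values were 3.75%, 3.75%, 3.63% and 5.33%, so the low end was the larger for AAC in astrocyte 1 only. The median AAC level between labelled types was 73.3% in astrocytes and 79.2% in microglia, a difference of -5.83 points (exact permutation p = 1), which became 15 points without microglia 1 and 0.83 points without astrocyte 1. The replicate 1 libraries alone differed by -33.3 points.

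**Figure D2:**
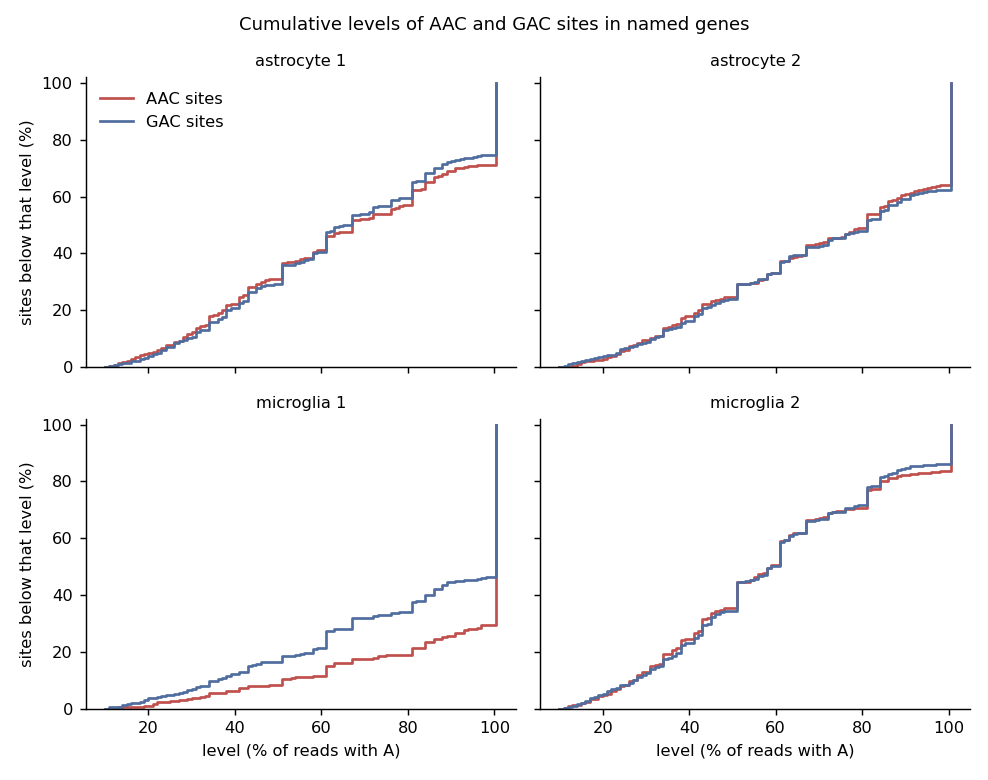
Cumulative share of sites (vertical axis, percent) below each level (horizontal axis, percent of reads with A) for AAC and GAC sites in named genes, 1 panel a library. The curves nearly overlie each other in astrocyte 1, astrocyte 2 and microglia 2, while in microglia 1 the AAC curve runs lower because 70.4% of AAC sites, against 53.5% of GAC sites, are at 100%.

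AAC sites averaged fewer per gene than GAC sites in each of the 4 libraries. An AAC gene held 1.19 AAC sites on average in astrocyte 1 and 1.12 in astrocyte 2, with 1.03 in microglia 1 and 1.15 in microglia 2, and a GAC gene held 1.40, 1.25, 1.14 and 1.35 GAC sites. The difference was -0.16 ± 0.05 sites per gene, lower for AAC in 4 of 4 libraries. The exact sign-flip permutation test gave p = 0.13, the smallest that 4 libraries allow, and 1 after Benjamini-Hochberg adjustment over the 8 tests made, as was the adjusted p of the other 7. Fewer AAC than GAC sites were listed in each library, and the part of that number in the difference was not tested.

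Over all libraries 1913 of the 2420 AAC genes had 1 AAC position, 355 had 2, 126 had 3 or 4 and 26 had 5 or more, while 163 genes had 5 or more GAC positions. Genes with an AAC site and no GAC site numbered 1184. Both 3-mers were listed in 1236 genes, which were 51.1% of AAC genes and 30.5% of GAC genes. In those, AAC positions outnumbered GAC in 148 genes, were fewer in 548 and equalled them in 540.

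The genes with most AAC positions were Son and Ddx17, with 10 each. Son encodes a large scaffold of nuclear speckles, the compartments that store splicing factors, and had 9 GAC positions. Its AAC sites were listed in all 4 libraries, 6 in astrocyte 1 and 1 in astrocyte 2, with 1 in microglia 1 and 4 in microglia 2, from 12.9% to 100%. Only 2 of the 10 Son positions were listed in more than 1 library. The first stood at 83.9% in astrocyte 1 and 71.4% in microglia 1, and the second at 100% in astrocyte 2 and 57.1% in microglia 2. Ddx17, an RNA helicase, had 10 GAC positions too, and its AAC levels ran from 10.9% to 80%.

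Ptprz1, a receptor phosphatase of glia, had 8 AAC and 5 GAC positions, Slc1a2 had 8 and 13, and Pcdh9, a protocadherin, had 7 and 13. All 3 had AAC sites in astrocyte 1 and microglia 2 only. Csnk1a1, a casein kinase that phosphorylates beta-catenin, had 6 AAC positions against 2 GAC, and 2610507B11Rik had 6 against 1, so in these genes AAC was the more frequent. Among noncoding RNA genes, LOC115489466 had 7 AAC and 6 GAC positions, Gm33649 had 6 and 5, and Gm15521 had 6 and 2. The LOC115489466 positions lay on the plus strand of chromosome 2 between Slc1a2 sites at positions 102488886 and 102586413, also plus strand. Which transcript the reads at them came from was not determined.

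Genes with at least 3 AAC positions and no GAC position in any library included Prnp and Ssbp2, with 4 each. Prnp, which encodes the prion protein, had sites at 27.3%, 17.9% and 13.8% in astrocyte 1 and 1 at 16.7% in microglia 2, all low. Ssbp2, a single-stranded DNA-binding transcriptional cofactor, had all 4 in astrocyte 1, from 42.1% to 83.3%. Clk1, a kinase that phosphorylates splicing factors, had 3 single-library sites at 38.1% in astrocyte 1, 23.5% in astrocyte 2 and 18.2% in microglia 2. Fubp1, Jmy, Nfix and Slc33a1 likewise had 3 AAC sites, 1 each in astrocyte 1, astrocyte 2 and microglia 2. Their lowest to highest levels were 30.0% to 58.3% in Fubp1, a nucleic acid-binding regulator of Myc, and 57.1% to 60% in Jmy, an actin regulator. They were 50.0% to 80% in Nfix, a nuclear factor I transcription factor, and 80% to 100% in Slc33a1, an acetyl-CoA transporter. The rest of these genes named by rule were Cmip, with levels from 42.9% to 100%, 1810013L24Rik, from 40% to 60%, and 5031439G07Rik, from 25.0% to 55.6%.

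Within genes that held both 3-mers in the same library, mean AAC and GAC levels were close. Astrocyte 1 had 455 such genes, astrocyte 2 had 214, microglia 1 had 38 and microglia 2 had 322. The mean over genes was 60.2% for AAC and 60.2% for GAC in astrocyte 1, 67.2% and 68.2% in astrocyte 2, 69.7% and 66.7% in microglia 1, and 52.9% and 54.2% in microglia 2. AAC was higher in 207 genes and lower in 210 in astrocyte 1, 94 and 97 in astrocyte 2, 14 and 17 in microglia 1, and 138 and 165 in microglia 2.

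The within-gene difference was 0.19 ± 1.98 points over libraries (n = 4, exact sign-flip permutation p = 0.875, higher for AAC in 2 of 4). Single genes differed far more, with an SD over genes of 25.3 points in astrocyte 1 and 31.1 in astrocyte 2, with 33.5 in microglia 1 and 23.1 in microglia 2. Without microglia 1 the difference was -0.757 points. Counting only sites below 100%, it was -0.978 points in 340 genes of astrocyte 1, -0.138 in 127 genes of astrocyte 2, -7.82 in 20 genes of microglia 1 and -1.12 in 286 genes of microglia 2. All 4 are below 0 (mean -2.51, exact sign-flip permutation p = 0.13, the smallest possible), with SDs over genes of 20.5 to 28.2 points. Among these genes AAC was higher in 158 and lower in 173 in astrocyte 1, and 62 and 62 in astrocyte 2. The counts were 6 and 12 in microglia 1, and 123 and 148 in microglia 2. Over sites of all levels, the genes with both 3-mers held fewer AAC than GAC sites. They held 1.35 and 1.89 a gene in astrocyte 1, 1.26 and 1.61 in astrocyte 2, 1.11 and 1.66 in microglia 1, and 1.27 and 1.71 in microglia 2. AAC sites were also the fewer in each library as a whole, and the part of that in these values was not tested.

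**Figure D3:**
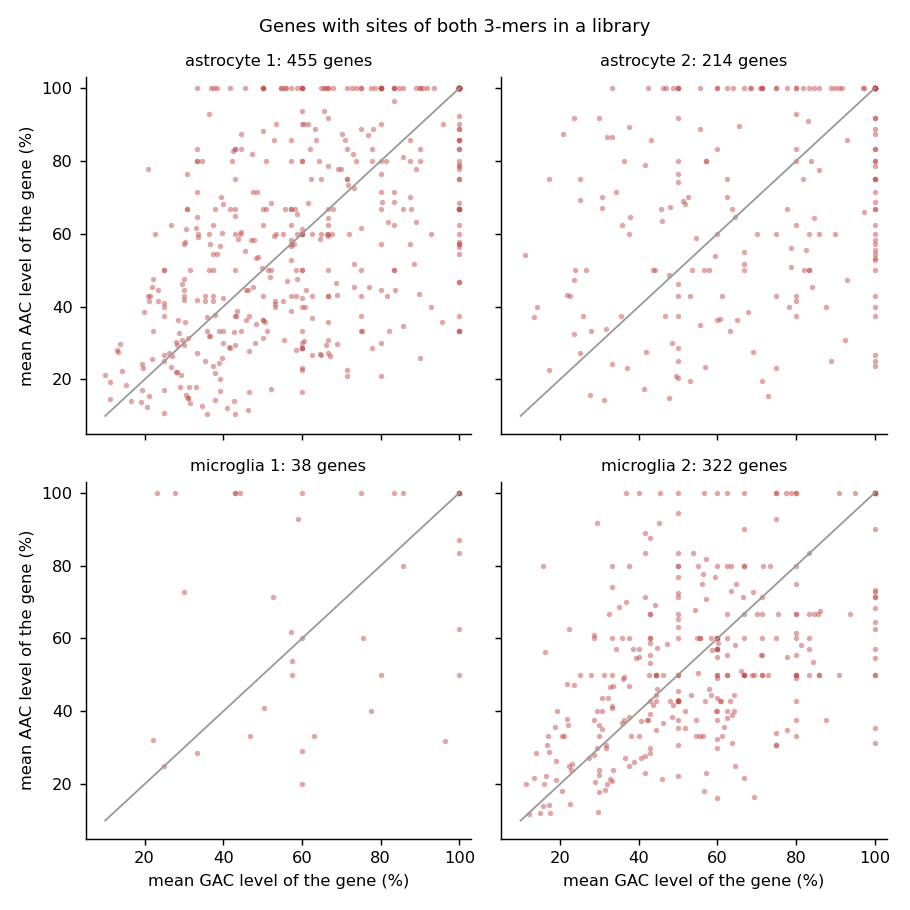
Mean AAC level (vertical axis, percent) against mean GAC level (horizontal axis, percent) of each gene with both 3-mers in that library, 1 panel a library, with the line of equal levels. Points scatter on both sides of the line in each panel, 455 genes in astrocyte 1 and 214 in astrocyte 2, with 38 in microglia 1 and 322 in microglia 2.

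Neighbouring sites stood in either order. AAC and GAC sites of 1 gene and strand lay within 100 nucleotides of each other in 100 pairs in astrocyte 1 and 50 in astrocyte 2, with 11 in microglia 1 and 59 in microglia 2. AAC was the higher in 35, 17, 5 and 22 of these and the lower in 45, 17, 3 and 29. These were 217 distinct pairs, of which 214 were listed in 1 library and 3 in 2. In Cpeb4, a translational regulator that binds messenger RNA tails, sites 7 nucleotides apart stood at 62.5% for AAC and 100% for GAC in microglia 1, and at 37.9% and 21.9% in microglia 2. The order of the 2 sites thus turned between libraries. In Grn, which encodes the lysosomal protein progranulin, sites 9 nucleotides apart stood at 24.3% for AAC and 33.3% for GAC in astrocyte 2, and at 72.7% and 30.0% in microglia 1. This order turned as well. In Top1mt, the mitochondrial topoisomerase, sites 25 nucleotides apart stood at 68.4% for AAC and 100% for GAC in astrocyte 1, and at 74.2% and 100% in microglia 1, with AAC lower in both. The closest pairs in 1 library were 3 nucleotides apart in Npepl1, both sites at 80% in astrocyte 2, and in Zeb1, both at 25.0% in astrocyte 1. Among pairs 4 nucleotides apart, Gab1 had both sites at 71.4% in microglia 2, Akap7 had 50.0% for AAC and 68.8% for GAC in microglia 2, and Cldn11 had 28.0% and 13.7% in astrocyte 1.

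AAC sites with a close AAC neighbour were few. Another AAC site lay within 100 nucleotides of 2.52% of AAC sites in astrocyte 1 and 5.79% in astrocyte 2, with 1.29% in microglia 1 and 3.93% in microglia 2. For GAC sites with another GAC the shares were 7.41%, 7.30%, 4.17% and 7.68%. GAC sites were the more numerous in each library, and the part of that in these shares was not tested.

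Few AAC sites were listed in more than 1 library. Of the 3193 AAC positions 2885 (90.4%) were in 1 library, 214 (6.70%) in 2, 63 (1.97%) in 3 and 31 (0.971%) in all 4, against 6250 (90.9%), 489 (7.11%), 97 (1.41%) and 42 (0.611%) of the GAC positions. The share of a library's sites that another library also listed was 17.8% for AAC and 16.5% for GAC in astrocyte 1, 14.3% and 15.7% in astrocyte 2, 40.1% and 39.0% in microglia 1, and 21.1% and 18.6% in microglia 2. The difference was 0.834 ± 1.62 points (n = 4, exact sign-flip permutation p = 0.5, higher for AAC in 3 of 4), and 2.99 points without astrocyte 2 and 0.25 points without microglia 1. A shared site counts in every library that lists it, so the 4 values are not fully independent, which the test assumes.

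Sharing of AAC sites was split by level. At 100%, AAC sites were listed elsewhere in 31.2% of cases in astrocyte 1 and 21.3% in astrocyte 2, with 42.0% in microglia 1 and 46.3% in microglia 2, against 20.3%, 17.8%, 48.8% and 27.2% of GAC sites. AAC was higher in 3 of 4 libraries. Below 100% the order was the reverse in 3 of 4, with 12.4%, 10.3%, 35.7% and 16.1% of AAC sites and 15.3%, 14.5%, 27.7% and 17.3% of GAC sites. Only microglia 1 had the higher AAC share there, from 115 AAC sites.

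Between pairs of libraries, AAC stood above GAC in each pair over all sites by 1 measure of overlap, but not below 100%. The Jaccard index, the sites common to a pair of libraries as a percent of those that either listed, was higher for AAC in 6 of 6 pairs and ranged from 3.24% (astrocyte 1 with astrocyte 2) to 7.69% (astrocyte 1 with microglia 2), against 3.10% to 7.47% for GAC. Below 100% in both libraries AAC was higher in 3 of 6 pairs and ranged from 1.15% (astrocyte 1 with astrocyte 2) to 4.66% (astrocyte 1 with microglia 2), against 1.25% to 6.22% for GAC. The pairs share libraries, so no test was made over them. The index also depends on how unequal in number of sites the libraries of a pair are. As a percent of the smaller library's sites, shared AAC sites were below GAC in astrocyte 1 with astrocyte 2 (9.15% against 9.42%). They were also below in astrocyte 2 with microglia 1 (13.6% against 16.5%), and above in the remaining pairs. Both sites were at 100% in 32.0% to 62.2% of shared AAC sites by pair, against 14.2% to 54.7% of shared GAC sites. The library labelled astrocyte 1 thus shared the most AAC sites with that labelled microglia 2 and, by the Jaccard index, the fewest with astrocyte 2. Shared AAC sites differed in level between libraries with an SD of 14.5 to 21.2 points by pair, and GAC sites with 14.8 to 21.5.

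Within genes holding both 3-mers, AAC sites were listed elsewhere in 14.0% of cases in astrocyte 1 and 8.92% in astrocyte 2, with 40.5% in microglia 1 and 15.9% in microglia 2, and GAC sites in 14.5%, 10.4%, 22.2% and 17.8%. AAC was lower in 3 libraries and higher in microglia 1, where 17 of 42 AAC sites and 14 of 63 GAC sites were shared. The difference was 3.60 ± 9.79 points (n = 4, exact sign-flip permutation p = 1), and -1.56 points without microglia 1. Here too the 4 values are not fully independent, since libraries share sites.

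**Figure D4:**
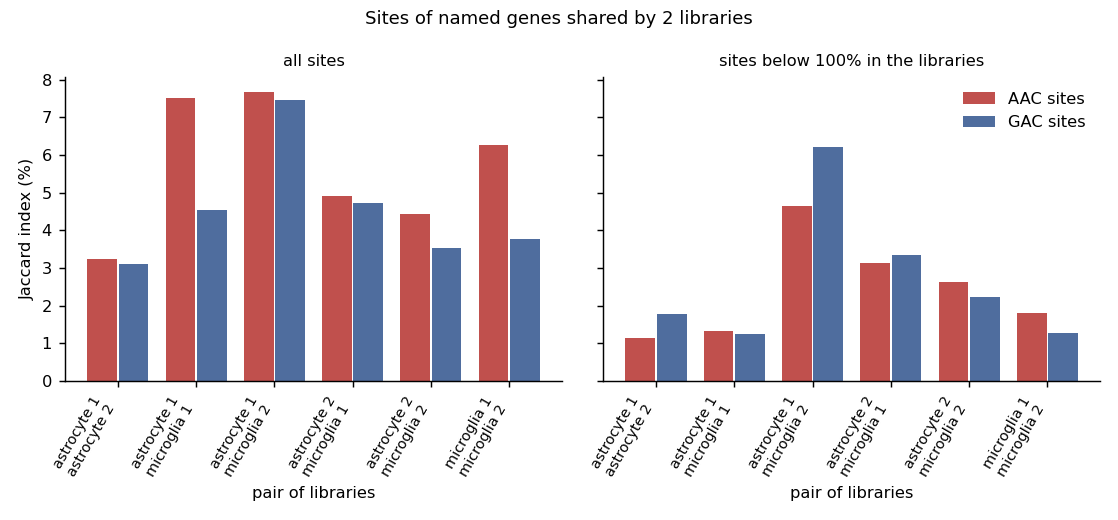
Jaccard index (vertical axis, percent) of AAC and GAC sites for each of the 6 pairs of libraries (horizontal axis), over all sites and over sites below 100%. AAC bars are the taller in 6 of 6 pairs over all sites and in 3 of 6 below 100%.

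Of the 31 AAC sites listed in all 4 libraries 14 stood at 100% in each, and 6 were below 100% in each. Of the 42 such GAC sites 12 stood at 100% in each, and 9 were below 100% in each. Without astrocyte 2, 64 AAC sites were listed in the other 3 libraries. The lowest of the 31 was in Haspin, a kinase of histone H3 (chromosome 11, position 73028062, minus strand), at 20.6% in astrocyte 1 and 15.2% in astrocyte 2, with 21.8% in microglia 1 and 14.2% in microglia 2 (18.0% ± 3.84, SD, n = 4 libraries). The groups overlapped. Snord38a, a small nucleolar RNA (chromosome 4, position 117011731, minus strand), had 23.6%, 25.5%, 20.0% and 18.8% in the same order. Marcks, an actin-binding substrate of protein kinase C (chromosome 10, position 37012013, minus strand), had 29.8%, 34.0%, 16.7% and 20.0%. In both, the astrocyte libraries were above the microglia libraries, by 5.17 points in Snord38a and 13.6 points in Marcks.

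Ncbp3, a cap-binding protein of messenger RNA export (chromosome 11, position 72973899, plus strand), had 41.0%, 60.8%, 47.2% and 48.1%, so that the groups overlapped. Msn, which encodes moesin, a linker of membrane to actin (chromosome X, position 95211969, plus strand), had 100%, 55.0%, 62.5% and 81.8%, the widest spread of the 31 (74.8% ± 20.2, n = 4). Arsb, a lysosomal sulfatase, had 95.2%, 76.9%, 100% and 100%, and its astrocyte libraries were below its microglia libraries.

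Among the 31, the astrocyte libraries lay all above the microglia libraries in 3 sites (Snord38a, Marcks and Rbm28), or 9.68%, beside a background of 3.82% of the 1100 sites of any kind listed in all 4 libraries. They lay all below in 1 site (Arsb), or 3.23%, beside a background of 1.91%. With 2 libraries against 2 and labels that the markers go against, these sites are given as values with no test. In the replicate 1 libraries alone, Marcks had 29.8% in astrocyte 1 and 16.7% in microglia 1, and Snord38a had 23.6% and 20.0%. Rbm28 had 100% in astrocyte 1 and 99.3% in microglia 1 (100% in astrocyte 2 and 98.4% in microglia 2), and Arsb had 95.2% in astrocyte 1 and 100% in microglia 1.

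The remaining named sites of the 31 were near the upper limit, each at 80% or more in every library. They lay in Gm26728, Gid4, a substrate receptor of a ubiquitin ligase, Tinf2, a telomere-binding protein, Rrp1 and Utp23, which act in ribosomal RNA processing, U2af2, a splicing factor, and Gm40026. Their means were 94.9% in Gm26728, 95% in Gid4, 97.5% in Tinf2, 98.1% in Rrp1, 98.5% in Utp23, 98.6% in U2af2 and 99.1% in Gm40026.

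**Figure D5:**
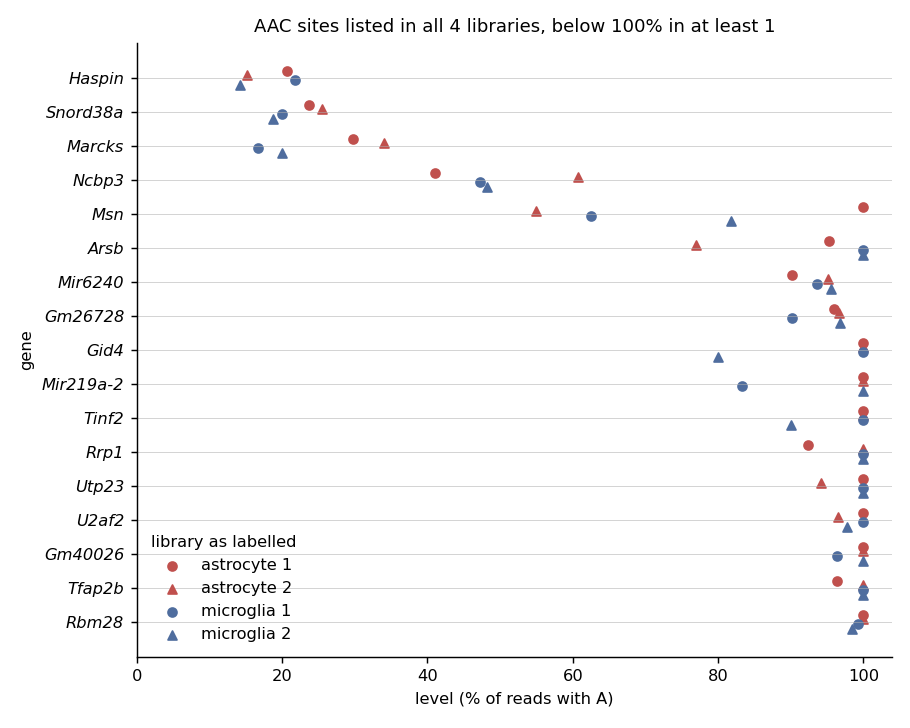
Level (horizontal axis, percent of reads with A) in each library of the 17 AAC sites listed in all 4 libraries and below 100% in at least 1, by gene (vertical axis). Haspin, Snord38a, Marcks and Ncbp3 lie between 14.2% and 60.8%, Msn spreads from 55.0% to 100%, and the rest reach 76.9% or more in every library.

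Of the 63 AAC sites listed in exactly 3 libraries, 33 were missing from astrocyte 2, 15 from microglia 1, 9 from microglia 2 and 6 from astrocyte 1. Of the 97 such GAC sites, 45, 33, 13 and 6 were missing from these libraries in the same order. Below 100% in each of their libraries were 28 of the GAC sites and 10 of the AAC sites. Among these AAC sites, that of Psap, which encodes the lysosomal precursor prosaposin, had 25.0% in astrocyte 2, 28.6% in microglia 1 and 30.6% in microglia 2. A second Marcks site had 36.1%, 42.1% and 35.7% in these libraries, and Tgfbr1, a receptor of transforming growth factor beta, had 20.0%, 29.2% and 60%. LOC102636124, a noncoding RNA gene, had 14.1%, 12.8% and 11.0%. Psap and the Marcks site differed little between libraries and Tgfbr1 widely.

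Missing from microglia 1 were Malat1, a nuclear long noncoding RNA, at 15% in astrocyte 1, 25.0% in astrocyte 2 and 13% in microglia 2, and Ddx17, at 22.7%, 43.2% and 25.6%. So were Snord82, at 32.1%, 33.3% and 27.6%, and Rdx, which encodes radixin, a paralogue of moesin, at 47.6%, 58.8% and 53.3%. Ddx17 and Malat1 were highest in astrocyte 2, while Snord82 and Rdx spread over few points. Lrp1, an endocytic receptor, had 38.1% in astrocyte 1, 40% in microglia 1 and 24.0% in microglia 2. Slc29a3, a lysosomal nucleoside transporter, had 66.7% in astrocyte 1, 30.8% in astrocyte 2 and 31.8% in microglia 1.

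Counted by gene, 38 genes had an AAC site in all 4 libraries and 101 in 3. Both 3-mers were listed in all 4 libraries in 2 genes only, Son and Cpeb4, and in 3 libraries in 11. Those named among these 11 were Kmt2d, a histone H3 methyltransferase with 4 AAC and 20 GAC positions, Lrp1 with 4 and 14, Notch2 with 5 and 12, Malat1 with 5 and 9, and Srrm2, a nuclear speckle protein, with 4 and 10. Ddx17 was among them, as were Pag1, a membrane adaptor of kinase signalling, and Sirpa, the receptor of CD47 on myeloid cells, with 3 and 6 each. Apart from Son, Cpeb4 and Ddx17, each had fewer AAC than GAC positions.

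Astrocyte markers held AAC sites mostly at low levels. They had 37 AAC and 75 GAC positions, 33.0% AAC, in 14 and 21 of 24 genes. Their AAC sites had a median of 21.4% in astrocyte 1, where there were 27, and 19.0% in microglia 2, where there were 16, against 30.0% and 18.6% for GAC. Over all AAC sites the medians of these libraries were 66.7% and 58.3%. Astrocyte 2 had 1 such AAC site, at 30.0%.

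Slc1a2, which encodes a glutamate transporter that astrocytes make in large amounts, had 7 AAC sites in astrocyte 1 and 5 in microglia 2, from 11.8% to 33.3%. Of its 4 positions in both libraries, levels were 13.1% and 16.4%, 15.4% and 15.9%, 32.6% and 11.8%, and 24.4% and 27.7% in astrocyte 1 and microglia 2. Aqp4, which encodes the aquaporin of astrocyte endfeet, had 5 AAC positions from 18.8% to 43.8%. Slc1a3, a second glutamate transporter, had 4 from 10.1% to 27.8%, and Gja1, the gap junction protein connexin 43, had 3 from 21.7% to 37.0%. S1pr1, a receptor of sphingosine 1-phosphate, was the exception in range, with 4 positions of which 3 lay between 19.1% and 21.1% and 1 stood at 96.4% in astrocyte 1. Slc4a4, a bicarbonate cotransporter, had 3 from 27.3% to 50.0%, and Bcan, which encodes the matrix proteoglycan brevican, had 2, at 15.6% in astrocyte 1 and 11.9% in microglia 2.

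Microglia markers had 21 AAC and 60 GAC positions, 25.9% AAC, in 11 and 19 of 24 genes. The 13 AAC sites in astrocyte 2 had a median of 22.5% against 40.7% for GAC, and the 10 in microglia 1 had 45.0% against 45.2%. P2ry12, the purinergic receptor of resting microglia, had AAC sites at 32.7%, 40% and 50.0% in microglia 1 and 1 at 40% in astrocyte 2. Cx3cr1, the fractalkine receptor, had 1 AAC position, at 22.5% in astrocyte 2 and 53.8% in microglia 1. Tmem119, a membrane protein used to mark microglia, had 2 in microglia 1, both at 100%. Tgfbr1 had 5 AAC positions, all of them listed in astrocyte 2. Of these, 1 was also listed in microglia 1, at 29.2%, and in microglia 2, at 60%. Entpd1, an ectonucleotidase, had 2 AAC positions, from 38.5% to 40%.

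Markers of other cells held few AAC sites. None of 12 neuronal markers had an AAC site and 2 had a GAC site. Of 10 oligodendrocyte markers 5 had an AAC site, 3 in astrocyte 1 and 2 in microglia 2. Of 3 precursor markers 2 did, Pdgfra at 80% in astrocyte 1 and Vcan at 100% in microglia 1. Of 8 endothelial and mural markers 2 did, Pdgfrb at 28.1% and Rgs5 at 30.0%, both in microglia 2. Of 8 border macrophage and myeloid markers 1 did, Stab1, at 37.5% in astrocyte 2 and 50.0% in microglia 1.

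In 4 further gene lists AAC made up less of the positions than GAC, as it did over all named genes. Of 30 chromatin regulators 14 had an AAC site and 18 a GAC site, with 24 and 61 positions (28.2% AAC), led by the methyltransferases Kmt2a and Kmt2d with 4 AAC positions each and the Polycomb-linked Asxl1 with 3. Of 24 genes of Notch, Fgf, Hedgehog and Wnt signalling 11 had an AAC and 17 a GAC site, with 17 and 57 positions (23.0% AAC), led by Notch2 with 5, beside 2 each in Ctnnb1, which encodes beta-catenin, and the Hedgehog effector Gli3. Of 30 immediate early genes 6 had an AAC and 13 a GAC site, with 9 and 27 positions (25.0% AAC). Zfp36, which encodes a factor that destabilises inflammatory messenger RNAs, had 3 AAC sites, at 22.7% and 57.7% in astrocyte 2 and 50.0% in microglia 1. Btg2, an antiproliferative gene, had 2, at 100% in astrocyte 1 and in astrocyte 2. Of 22 genes of the m6A machinery 4 had an AAC and 10 a GAC site, with 4 and 20 positions (16.7% AAC). These were Fmr1 at 100% and Hnrnpa2b1 at 87.5% in astrocyte 1, Hnrnpc at 100% in astrocyte 2, and Rbm15b, a subunit of the methyltransferase complex, at 31.3% in microglia 2. Over all named genes 31.7% of the 10071 positions were AAC, and of 21900 protein-coding RefSeq symbols 9.84% had an AAC site and 17.0% a GAC site, expressed or not. The lists hold few positions and none was tested.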

How the data were processed

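GLORI was applied to RNA of sorted astrocytes and microglia, and the site calls are those of GLORI-tools (series' design text). Per the submitters' processing notes, STAR and mm39 were used. The thresholds for a call are not stated there or in the labels. Each deposited table has 7 columns, and its level is a fraction, given by the authors with no coverage, and printed here as a percent. The lowest level was 10.0%. Positions are 1-based in mm39, for which no sequence or annotation was used, so exon, intron and UTR were not assigned. Sites were matched by chromosome, position and strand.

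Per-library differences were tested with two-sided exact sign-flip tests (16 sign patterns) and cell types with exact permutation over 6 splits, adjusted by the Benjamini-Hochberg method over 8 tests. Tests used levels and numbers of listed sites, since the tables hold no read counts. Scripts were tested on simulated data. Python 3.11.15, pandas 2.3.3, numpy 2.4.6, scipy 1.17.1 and matplotlib 3.10.9 were used.

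Named genes were, by rule, those with AAC sites in 4 libraries (up to 15) or in 3 below 100% (up to 10), the 10 with most AAC positions, the 10 with both 3-mers in most libraries, up to 10 with 3 or more AAC and no GAC, the 10 markers with most AAC positions, 8 AAC and GAC pairs ranked by the number of libraries listing them and then by distance, and leading genes of 11 lists (195 symbols). Rbm28, Itgam, Atp1b2 and Cx3cr1 were named after their values were seen. Tmem119 was named although it only tied with Entpd1 and P2ry13 at 2 AAC positions in its list, and P2ry13 was not named. The sites and lists were chosen with earlier results of these data known.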

Additional observations from a re-analysis of the deposited data

Results flagged for a closer look

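Among 8 sets of 4 library values examined with Dixon's gap test, 2 held a library that stood apart from the other 3, and chance marks about 1 in 20 sets without ties. The difference in median level, AAC minus GAC, was -0.491 points in the library labelled microglia 2 and 0 in each of the other 3, so that any other value but 0 would stand apart. Within genes with both 3-mers, the difference in the share of sites listed in another library was 18.3 points in microglia 1 (17 of 42 AAC sites, 14 of 63 GAC sites), against -0.491 in astrocyte 1, -1.51 in astrocyte 2 and -1.86 in microglia 2. In microglia 1, 38.1% of these AAC sites and 20.6% of these GAC sites were at 100%, whose part in the difference was not tested.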

How the results depend on the processing

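Of 80 recomputed differences 64 kept their sign, 14 turned and 2 were exactly 0. No test passed under any setting, and none could, since the smallest p-value that 4 or fewer libraries allow is too high. Of 8 recomputed counts 6 stayed within 1.5 times and 2 did not. Differences here are in percentage points unless named otherwise. The median level difference, AAC minus GAC, became 0.345 with 3-mers of either case, 0.379 for sites of 20% or more and 2.20 with means. Below 100% the difference in sharing became -0.0551, the within-gene level difference -2.51 and the cell type difference in AAC share 2.34. The within-gene difference also became -0.365 as a median over genes, -0.0838 for sites within 100 nucleotides and -0.439 in protein-coding genes, the last chosen after the data were seen. With each library left out in turn, ranges were -0.164 to 0 for median level, 1.45 to 7.62 for the share at 100%, -0.18 to -0.15 sites per gene, 0.25 to 2.99 for sharing, -0.757 to 0.688 for within-gene level, -1.56 to 5.78 for within-gene sharing, -8.87 to 3.02 for the AAC share between cell types and -26.7 to 15 for the median AAC level between them. The 31 AAC sites in all 4 libraries became 6 below 100%, and 37 to 64 when 1 library was left out, 64 without astrocyte 2. With the replicate number as a block the cell type differences were -2.92 and -5.83 (exact permutation p = 1). Deviations of same-numbered libraries correlated at -0.115 over 1100 sites, which does not pair them. The crossed pairing, added after seeing the data, could make no call either. Either block can change only the p-value. Its differences, counted among the 64, therefore equal the main ones and could not turn. The cause of these turns was not tested. Coverage is unknown, so levels carry no counting interval.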

Other observations

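The rows with lower-case 3-mers in named genes, which the main comparison left out, were fewer and richer in AAC. AAC made up 50.4% of 236 such sites in astrocyte 1, 54.9% of 133 in astrocyte 2, 55.3% of 114 in microglia 1 and 56.5% of 154 in microglia 2, against 31.4%, 33.7%, 41.4% and 29.5% among upper-case sites.

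Marcks held AAC sites close together, with positions 37012013 and 37012024 on chromosome 10. At the second, the level was 22.0% in astrocyte 2 and 62.5% in microglia 2, against 34.0% and 20.0% at the first, so that the order of the sites differed between these libraries. Marcks had 4 AAC positions and 1 GAC position in all.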
